A study of Mus musculus with 3 samples.

Results

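The genes described here are the 78 genes named for the mitochondrial ribosome, whose symbols begin with Mrpl or Mrps followed by a digit, chosen by symbol alone from 16129 listed genes. They were measured by RNA sequencing of type 2 innate lymphoid cells (ILC2s), innate lymphocytes that make type 2 cytokines in barrier tissues, sorted by flow cytometry from digested mouse lungs. The design holds 1 group of 3 libraries, all from wild-type mice treated with IL-33 in vivo, an alarmin that activates these cells. The sources used here give neither the sorting antibodies nor the dose of IL-33, nor the age, sex and strain of the mice. Untreated cells were not analysed here, so every comparison is between genes of the same libraries and none concerns the effect of IL-33. The libraries held 19948056, 19883728 and 19976129 estimated reads in replicates 1, 2 and 3. The labels do not tie the libraries to animals, and their spread may therefore be technical only.

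The cell label was checked against marker genes. All 10 ILC2 markers were at a mean of at least 100 TPM (a level per transcript length, scaled to a fixed total in each library), among them the IL-33 receptor gene Il1rl1 (1064 ± 33.2 TPM, SD, n = 3) and the transcription factor gene Gata3 (252, 254 and 261 TPM). Of 34 listed markers of other cell types, 16 reached 1 TPM in each library, and the median over the 34 was 1.22 TPM. Macrophage and monocyte genes had the highest sum of these, of 603, 582 and 737 TPM in replicates 1, 2 and 3 over 9 listed genes, of which Chil3 and Ctss made up most (375 ± 74.7 and 198 ± 7.07 TPM). By median the epithelial list was higher, at 9.40 TPM against 5.83 TPM for the macrophage list. Of the B cell markers, Ms4a1 and Pax5 lay below 1 TPM and Cd79b at 21.9 ± 1.82 TPM. The part of such cells in the levels below was not tested.

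Mitochondria hold their own ribosome, which is built from RNAs encoded in mitochondrial DNA and from proteins encoded in the nucleus, made in the cytosol and imported. It translates a small set of hydrophobic proteins, all subunits of respiratory complexes I, III and IV and of the ATP synthase, complex V. Many of its proteins descend from those of the bacterial ribosome, and others are found only in mitochondria. Activated ILC2s are known to draw on mitochondrial respiration.

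Every gene of the set was transcribed in these cells at a moderate level. All 78 reached 1 TPM in each of the 3 libraries, against 67.3% of all listed genes, and all 78 also reached 5 TPM, against 57.6%. Their median was 41.9 TPM, beside 28.2 TPM over the 10852 genes that reached 1 TPM in each library. A mean of at least 10 TPM was found for 76 of the 78, against 51.2% of listed genes. A mean of at least 100 TPM was found for 7 of the 78, against 10.3%, a share near that of all genes. The summed level of the 78 genes was 3909, 3904 and 3824 TPM, which is 0.391%, 0.390% and 0.382% of each library.

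**Figure D1:**
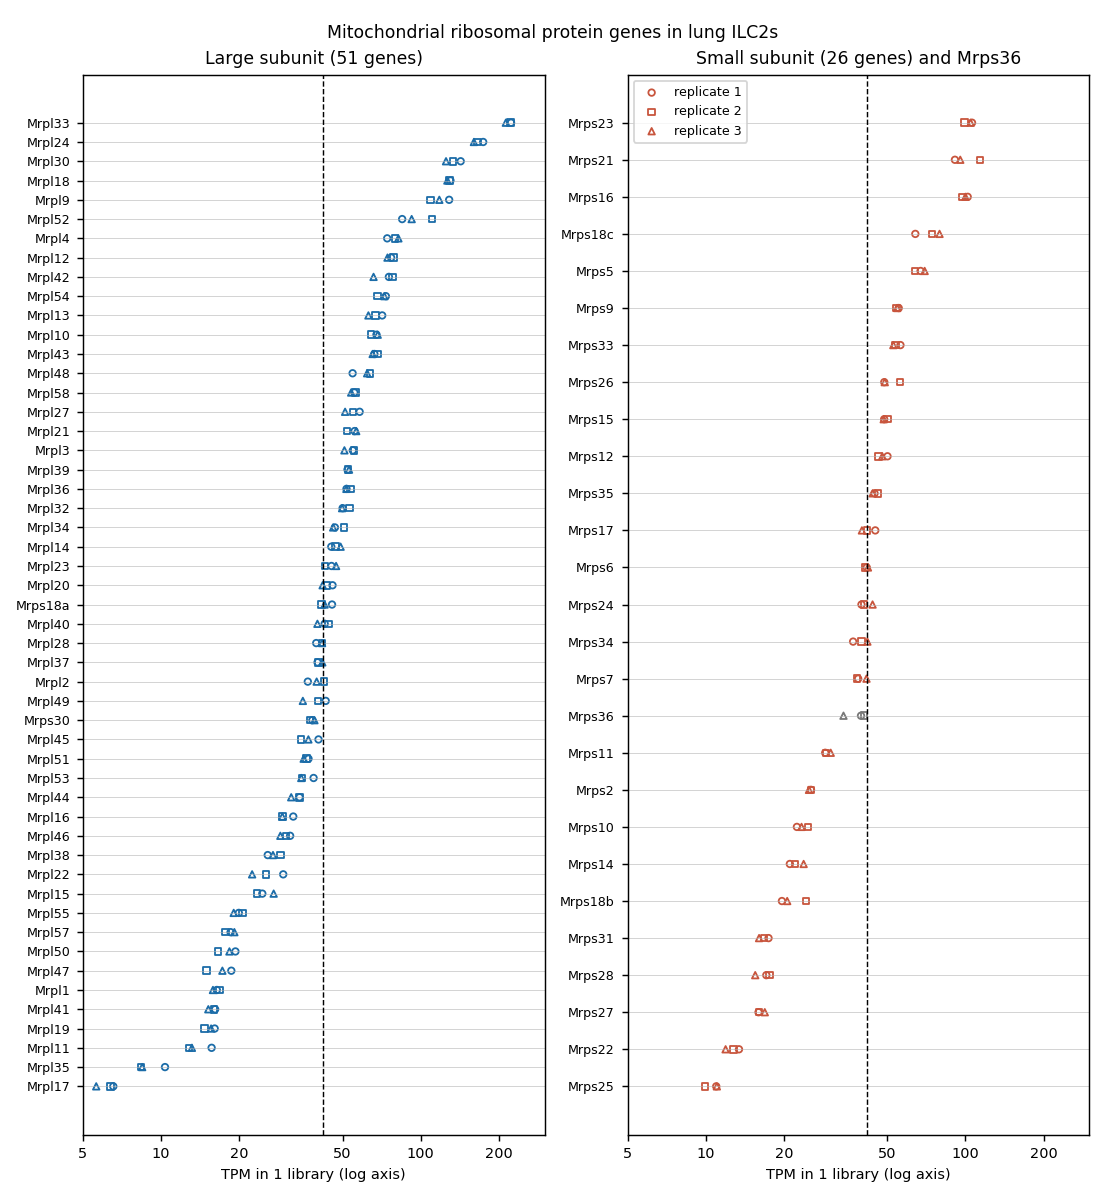
TPM of each of the 78 genes (log axis) in the 3 libraries, with large subunit genes in blue on the left, and small subunit genes in red with Mrps36 in grey on the right; the dashed line is the median of the 78 genes (41.9 TPM). Levels run from Mrpl33 (219 TPM on average) to Mrpl17 (6.19 TPM), and the 3 libraries lie close together for every gene.

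The highest level belonged to Mrpl33, a small protein of the large subunit with a bacterial counterpart, at 223, 222 and 213 TPM in replicates 1, 2 and 3. Mrpl24, which lies near the exit of the tunnel through which the new protein leaves, followed at 174, 166 and 160.3 TPM. In both genes all libraries lay above every library of the next gene. Mrpl30 had 143, 133 and 125 TPM, Mrpl18 had 130.2, 129 and 127 TPM, and Mrpl9 had 129, 109 and 118 TPM, so that the libraries of these 3 genes overlapped. These top 5 are all conserved proteins of the large subunit. The highest small subunit genes were Mrps23 (106, 99.0 and 105 TPM), found only in mitochondria, Mrps21 (91.1, 114 and 95.5 TPM) and Mrps16 (102, 97.3 and 99.9 TPM), and their libraries overlapped too. In GRCm38.p6, Mrpl33 (Entrez gene 66845) lies on chromosome 5 from 31613951 to 31622644 and Mrpl24 (67707) on chromosome 3 from 87918131 to 87923450.

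The lowest level belonged to Mrpl17 (27397, chromosome 7 from 105803782 to 105811087), a conserved protein of the large subunit, at 6.55, 6.38 and 5.63 TPM. Mrpl35 followed at 10.4, 8.39 and 8.46 TPM and Mrps25 at 10.97, 9.91 and 11.03 TPM. Mrpl17 stayed below every library of Mrpl35, whereas Mrpl35 and Mrps25 overlapped. Above them came Mrps22 (13.4, 12.8 and 11.9 TPM), Mrpl11 (15.7, 12.8 and 13.2 TPM), Mrpl19 (16.1, 14.7 and 15.6 TPM), Mrpl41 (16.2, 16.0 and 15.2 TPM) and Mrps27 (15.96, 16.0 and 16.9 TPM). The highest mean of the 78 was 35.4 times the lowest, although the assembled ribosome holds these proteins as parts of a single particle.

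Between these ends the levels formed a continuous series. Of the 77 pairs of neighbours in the order of means, 69 overlapped between libraries and 8 did not. Means below 10 TPM were found for 2 genes, from 10 to under 20 TPM for 13, from 20 to under 40 for 20, from 40 to under 60 for 24, from 60 to under 100 for 12, and of 100 or more for 7. The order within the middle of the series is therefore not resolved by these libraries. Mrps36, which shares the naming but is known in mammals as a component of the oxoglutarate dehydrogenase complex and not of the ribosome, had 39.6, 40.7 and 33.9 TPM, close to the median of the set.

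Lower levels in TPM went with greater length. The effective length, calculated from the deposited count and FPKM (a level per length and library size), had a median of 1015 bases over the 78 genes, against 2786 bases over all genes that reached 1 TPM in each library. Mean TPM was lower where the length was greater, with a Spearman coefficient of -0.54 across the 78 genes, and Pearson's coefficient between the log2 values was -0.64. This is a description across genes, since TPM is itself the count divided by that length. Of the 8 lowest genes, 6 had an effective length over 2000 bases, and of the 8 highest none did.

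Mrpl17 shows this most clearly. Its reads were divided by 6671 bases, and GENCODE M21 lists 4 coding transcript models for it, the shortest of 380 and the longest of 7300 bases. Its mean of 394 reads per library placed it 45th of the 78 in CPM (reads scaled by library size and not divided by length), although it was last in TPM. Mrps25 (6030 bases), Mrpl19 (4968 bases) and Mrpl35 (3643 bases) stood 20th, 14th and 57th in CPM. Mrpl33, divided by 417 bases, was 10th in CPM and first in TPM. Mrpl9 was first in CPM with a mean of 88.1, and Mrps28 was last with 5.40, so that in reads the highest was 16.3 times the lowest.

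**Figure D2:**
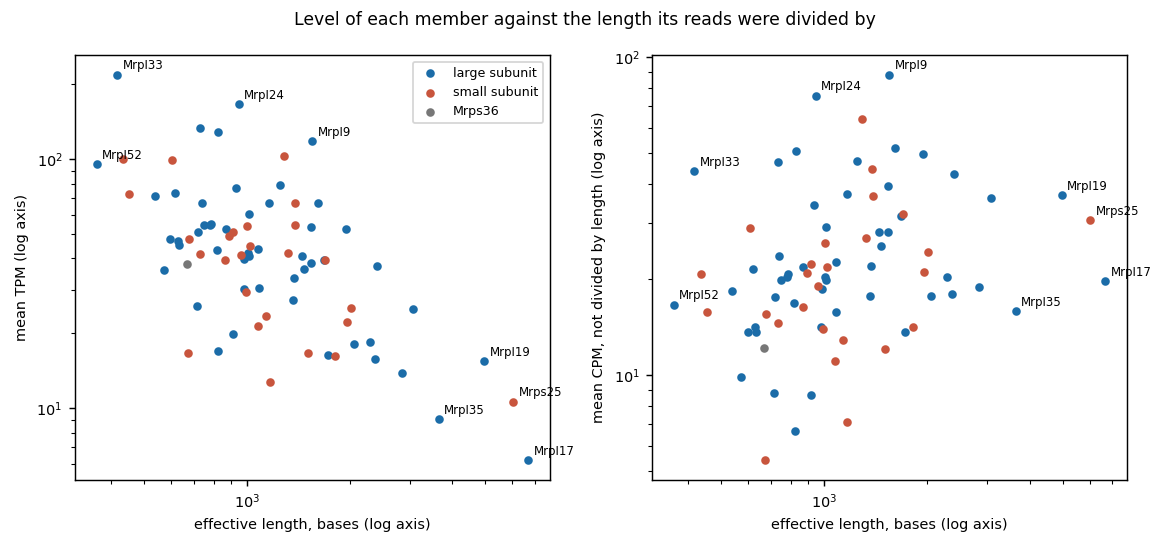
Mean TPM (left) and mean CPM (right) of each of the 78 genes against the effective length in bases, all on log axes, with large subunit genes in blue, small subunit genes in red and Mrps36 in grey. The 4 longest genes, Mrpl17, Mrps25, Mrpl19 and Mrpl35, are among the 8 lowest in TPM but stand 14th to 57th of the 78 in CPM.

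Large and small subunit genes had similar levels. By their place in the mammalian structure, 51 of the genes encode proteins of the large subunit, which joins amino acids, and 26 encode proteins of the small subunit, which reads the messenger RNA. Mrps18a and Mrps30, named after the small subunit, are known to sit in the large one and were counted there. The large subunit genes had median levels of 45.3, 42.9 and 41.9 TPM in replicates 1, 2 and 3, against 40.7, 40.8 and 42.0 TPM for the small subunit genes. The mean log2(TPM + 1) of the large subunit genes was higher by 0.22, 0.16 and 0.15 in the 3 libraries (0.18 ± 0.040, SD, n = 3). With medians in place of means the difference was 0.15, 0.07 and -0.0032, and it thus changed sign in replicate 3. No p-value is given for such a score, since the lists were chosen with results known. The mean difference was 0.061 over the 57 genes that share under 10% of their sequence words with another gene.

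Genes with a bacterial counterpart stood slightly above those found only in mitochondria. The 46 conserved genes had median levels of 45.5, 44.9 and 46.6 TPM, against 40.1, 39.9 and 39.0 TPM for the 31 mitochondria-specific genes. The mean log2(TPM + 1) was higher by 0.25, 0.22 and 0.25 in the conserved genes (0.24 ± 0.015, SD, n = 3), and this held in 3 of 3 libraries. The conserved genes of the large subunit ranged from 6.19 to 219 TPM, the widest range among the 4 classes, and the mitochondria-specific genes of the large subunit from 15.8 to 95.8 TPM. In the small subunit, the conserved genes ranged from 16.7 to 100.1 TPM and the mitochondria-specific genes from 10.6 to 103 TPM. The conserved excess was 0.069 in CPM, where length is not divided out, and 0.081 over the genes with few shared sequence words.

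Genes of the same part of the ribosome did not share a level. The stalk recruits translation factors to the large subunit. Its genes Mrpl12 (76.9, 78.7 and 74.5 TPM), Mrpl54 (73.4, 68.2 and 72.5 TPM) and Mrpl10 (67.6, 64.4 and 68.3 TPM) lay close together. Mrpl12 lay just above Mrpl54 in every library. Mrpl53, at the base of the stalk, was lower at 38.7, 34.9 and 34.7 TPM, and Mrpl11, the conserved protein there, lower still at 15.7, 12.8 and 13.2 TPM. In TPM, the libraries of these last 2 genes overlapped neither each other nor the first 3. In CPM, which is not divided by length, Mrpl11 stood above Mrpl53 (18.9 against 9.88) and beside Mrpl54 (18.4). Mrpl53 also shares 82.0% of its sequence words with another gene, so the order of these genes is uncertain.

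The central protuberance of the large subunit faces the small subunit. Mrpl18 led this group at a mean of 129 ± 1.80 TPM (SD, n = 3), and Mrpl48, Mrpl58 and Mrpl27 followed at 60.2 ± 4.84, 55.2 ± 1.11 and 54.7 ± 3.52 TPM. Mrpl58 encodes a peptidyl-tRNA hydrolase that has become part of the ribosome. Mrpl40 stood at 42.3 ± 2.06 TPM, Mrpl46 at 30.2 ± 1.31 and Mrpl38 at 27.2 ± 1.56. Mrpl55 was the lowest at 19.9 ± 0.763 TPM, below every library of the other 7 genes.

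In TPM, the tunnel exit had the widest range of the groups, from Mrpl24 (167 ± 6.91 TPM) to Mrpl17 (6.19 ± 0.490). In CPM, which is not divided by length, Mrpl24 had 75.6 and Mrpl17 19.7. There Mrpl17 stood above Mrpl23 (13.6), Mrpl22 (8.80) and Mrpl47 (6.68). Mrpl24, Mrpl47, Mrpl22 and Mrpl23 share 23.3%, 23.3%, 22.4% and 11.8% of their sequence words with another gene, so their levels are less certain. Mrpl45, which is known to attach the ribosome to the inner membrane, stood at 37.3 ± 2.92 TPM, between Mrpl23 (45.1 ± 2.18) and Mrpl44 (33.3 ± 1.39). Mrpl22 had 29.6, 25.4 and 22.4 TPM, and Mrpl47 had 18.7, 14.9 and 17.2 TPM. Around the catalytic centre and the upper tunnel the range was narrower, with Mrpl4 at 78.6 ± 3.94 TPM, Mrpl3 at 53.6 ± 2.44, Mrpl2 at 39.7 ± 2.87 and Mrpl16 at 30.3 ± 1.71.

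In TPM, the range of small subunit proteins along the path of the messenger RNA was narrower still. In CPM, which is not divided by length, it was not narrower, from 14.003 (Mrps11) to 44.4 (Mrps5). The genes around the catalytic centre and the upper tunnel ran from 15.8 (Mrpl16) to 47.0 (Mrpl4) in CPM. Of the small subunit genes, Mrps5 stood at 66.9 ± 2.80 TPM and Mrps12, at the decoding site, at 48.0 ± 1.95. Mrps24 stood at 41.4 ± 2.17 TPM, Mrps7 at 39.5 ± 1.83 and Mrps11 at 29.4 ± 0.774. Mammals have 3 relatives of the bacterial protein S18, each at its own place in the ribosome. Mrps18c had 64.1, 74.3 and 79.4 TPM, Mrps18a had 45.6, 41.5 and 42.6 TPM, and Mrps18b had 19.6, 24.3 and 20.6 TPM. These groups did not overlap in any library. Of the sequence words of Mrps18b and Mrps18c, 30.2% and 22.9% also occur in another gene on either strand, so their levels are less certain.

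**Figure D3:**
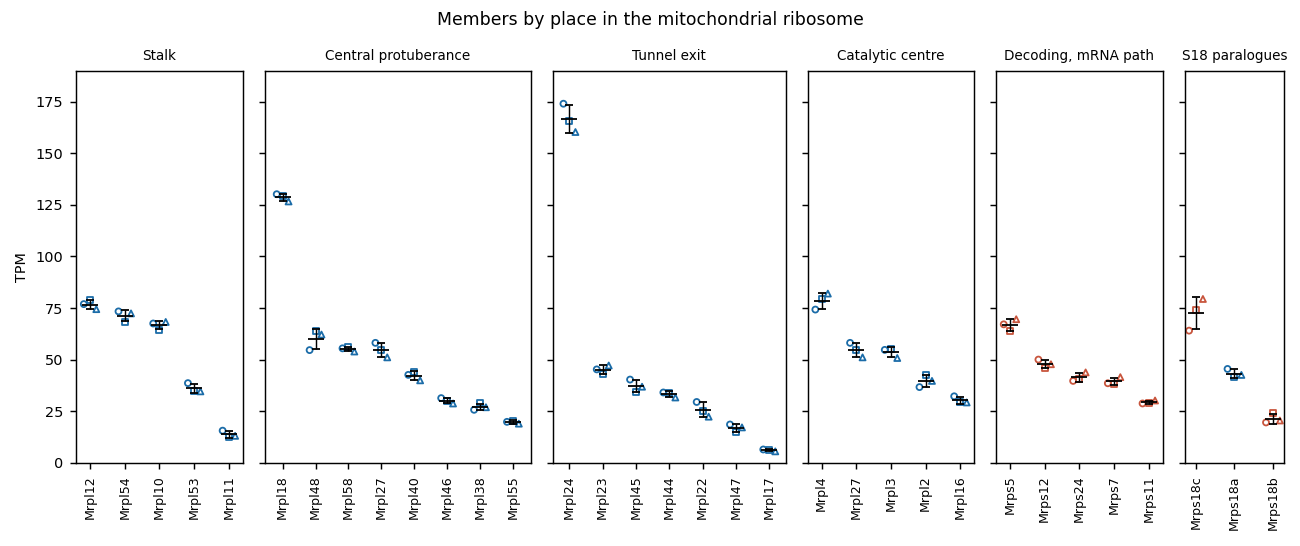
TPM of the genes of 5 parts of the mitochondrial ribosome and of the S18 relatives, with each library as a point (circle, square and triangle for replicates 1, 2 and 3) and the mean ± SD as bars; large subunit genes are blue and small subunit genes red. Levels in TPM differ within each part, most at the tunnel exit, from Mrpl24 at 167 TPM to Mrpl17 at 6.19 TPM. In CPM, which is not divided by length, Mrpl17 was not the lowest of that part.

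Read sharing limits some of these levels. Over the 78 genes, 57 share under 10% of their 50-base words with another gene of GENCODE M21 on either strand, and the other 21 share more. The highest shares were 82.0% for Mrpl53, in the same direction as Gm42688, 71.8% for Mrps34, beside Mapk8ip3 and Nme3, and 68.2% for Mrps25, on the opposite strand of Nr2c2. The sources used here do not say whether the libraries kept the strand, so reads of such overlapping genes cannot be told apart with certainty.

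Beside the ribosomes of the cytosol, the genes of the mitochondrial ribosome were far lower. The 78 genes had medians of 42.9, 41.7 and 41.9 TPM, against 2546, 2638 and 2489 TPM for 87 cytosolic ribosomal protein genes. The difference in median log2(TPM + 1) was -5.86, -5.95 and -5.86 in the 3 libraries (-5.89 ± 0.052, SD, n = 3), a 59.3-fold lower level. Of the 87 cytosolic genes, 79 lay above Mrpl33, the highest of the 78. The 8 exceptions were the core genes Rps6 (75.4 ± 4.33 TPM) and Rpl31 (201 ± 21.9), and 6 relatives whose symbols end in l or l1, from Rpl10l (0.070 ± 0.121) to Rps27l (111 ± 7.25). The cytosolic genes have many near-identical copies in the genome, so single levels among them are uncertain.

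The genes were also lower than those of the complexes their ribosome helps to build. The 78 genes had medians of 42.9, 41.7 and 41.9 TPM, against 151, 145 and 139 TPM for the 82 nuclear-encoded subunits of oxidative phosphorylation. The difference in median log2(TPM + 1) was -1.79, -1.77 and -1.70 (-1.76 ± 0.046, SD, n = 3), a 3.38-fold lower level. The distance differed between complexes. It was -1.32 ± 0.053 from complex I (36 genes), -1.71 ± 0.032 from complex II (4 genes), which holds no subunit made by the mitochondrial ribosome, and -1.82 ± 0.029 from complex III (9 genes). It was -2.58 ± 0.105 from complex IV (16 genes, of which 3 did not reach 1 TPM in each library) and -3.06 ± 0.076 from complex V (17 genes). Of the 78 genes, 5 exceeded the median of complex I, and 0 exceeded that of complex IV or complex V.

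The genes of the mitochondrial ribosome varied less among themselves than either of those sets. The SD of log2(TPM + 1) over the 78 genes was 0.95, against 2.59 over the cytosolic ribosomal genes and 1.93 over oxidative phosphorylation, both of which include tissue-restricted forms near 0. Complex I, which has no gene near 0, had an SD of 0.86 and complex V of 0.96. The 90th percentile of the 78 genes was 5.94 times the 10th, against 4.01 times in complex I and 5.10 times in complex V.

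**Figure D4:**
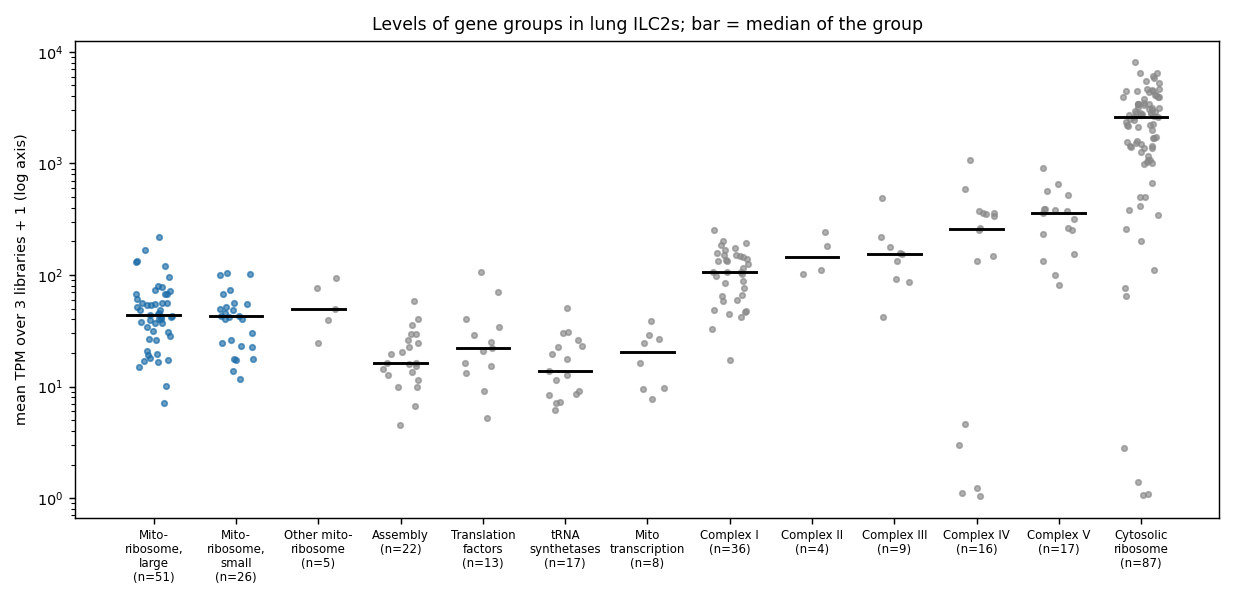
Mean TPM + 1 over 3 libraries (log axis) of each gene of the mitochondrial ribosome (blue, large and small subunit) and of related gene groups (grey), with a bar at the median of each group. The medians of the large (43.2 TPM) and small (41.5 TPM) subunit genes lie above those of the assembly factors (15.3 TPM) and tRNA synthetases (12.7 TPM) and below those of complex I (105 TPM), complex V (359 TPM) and the cytosolic ribosome (2611 TPM).

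Other genes of mitochondrial translation were present in full and mostly lower. Of 65 genes in 5 lists, all 65 reached 1 TPM in each library, again against 67.3% of listed genes. The 5 proteins of the mitochondrial ribosome with other names were at levels like those of the 78, with a median of 48.2 TPM. Dap3, a GTP-binding protein of the small subunit, stood at 93.7 ± 1.96 TPM, Aurkaip1 at 75.5 ± 1.23, Chchd1 at 48.2 ± 7.37 and Gadd45gip1 at 23.4 ± 1.38. Among 13 translation factors the median was 21.0 TPM. The elongation factor gene Tufm led at 106 ± 1.68 TPM, followed by the membrane insertase gene Oxa1l at 69.9 ± 2.52 and the elongation factor gene Gfm1 at 39.4 ± 1.47, and the release factor gene Mtrf1 was lowest at 3.77, 5.01 and 3.82 TPM.

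The 22 assembly factors had a median of 15.3 TPM, led by Rbfa (57.2 ± 2.72 TPM), which acts on the small subunit, the helicase gene Dhx30 (39.7 ± 0.775) and Mpv17l2 (34.6 ± 2.00), with the nuclease gene Ybey at 3.62, 3.46 and 3.41 TPM. The 17 mitochondrial tRNA synthetases had a median of 12.7 TPM, from Iars2 (49.5 ± 2.00 TPM), Tars2 (29.8 ± 1.17) and Fars2 (29.5 ± 3.41) to Pars2 (5.14 ± 0.548). Of the 8 genes of mitochondrial transcription and RNA binding, with a median of 19.5 TPM, Slirp (37.8 ± 8.04 TPM), Lrpprc (28.1 ± 2.13) and Tfb2m (25.4 ± 1.01) were highest and Mterf1a lowest at 6.76 ± 0.470. In TPM, the structural proteins of the ribosome thus had the higher medians and the other lists of mitochondrial translation and transcription the lower ones. Single genes of those lists, Tufm, Oxa1l, Rbfa and Iars2, lay above the median of the 78 genes (41.9 TPM). Lengths and CPM were not compared between these lists.

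The 3 libraries differed little in these genes. The SD of log2(TPM + 1) between libraries had a median of 0.065 over the 78 genes, against 0.064 over the 6957 listed genes in the same range of mean counts (108 to 1757 reads). The ratio of the variance between libraries to the variance that counting alone gives had a median of 0.998, against 1.13 over those 6957 genes, where counting noise alone would give about 0.693 with 3 libraries. In pairs of libraries, the chi-square statistic per gene was 1.29 to 2.04 over the 78 genes, where counting alone gives about 1. It was 2.48 to 3.47 over all genes with at least 20 reads in the pair, so every pair of libraries differed beyond sampling noise. Unlike the 6957 genes, that set was not matched to the 78 in reads, so these ranges are not directly comparable. The coefficient of variation between libraries ran from 0.673% to 13.9% over the 78 genes. Counting error alone gave 2.39% to 9.64%.

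The largest ranges between libraries were in Mrpl22 and Mrpl52. Mrpl22 was highest in replicate 1 (29.6, 25.4 and 22.4 TPM) and Mrpl52 in replicate 2 (84.8, 110.3 and 92.3 TPM), with ranges of 0.38 each on the log2 scale. Mrps21 was also highest in replicate 2, and Mrps18c lowest in replicate 1, with ranges of 0.32 and 0.31. Mrpl47 was lowest in replicate 2, with a range of 0.30. Replicate 1 held the highest value for 33 of the 78 genes (42.3%), against 28.4% of genes in the same count range, replicate 2 for 24, against 33.1%, and replicate 3 for 21, against 38.6%. The median deviation from a gene's own mean, on the log2 scale, was 0.016, 0.0016 and -0.020 in replicates 1, 2 and 3, against -0.012, 0.0013 and 0.010 over the 6957 genes. In replicates 1 and 3 the signs were opposite.

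Mrpl52 and Mrps21, both highest in replicate 2, have effective lengths of 363 and 435 bases. Of the 7 genes of the mitochondrial ribosome under 600 bases, 3 were highest in replicate 2, against 48.7% of the 117 listed genes of that length in the same count range. Of the 11 with at least 2000 bases, 1 was highest there, against 35.4% of listed genes. Between these lengths, 11 of 29 genes from 600 to under 1000 bases were highest there, against 32.8%, and 9 of 31 from 1000 to under 2000 bases, against 25.8%. The share over listed genes thus showed no steady trend with length. Their median deviation in replicate 3 did rise with length, at -0.026, -0.023, 0.0069 and 0.014 from the shortest to the longest class. Listed genes from 600 to under 1000 bases had 0.021 and -0.023 in replicates 1 and 3, beside 0.017 and -0.022 for the 29. At 2000 bases or more the signs stayed opposite, at -0.020 and 0.014 for 4729 listed genes and 0.054 and -0.011 for the 11. The part of length in the differences between libraries was not tested. The summed macrophage markers were 603, 582 and 737 TPM in replicates 1, 2 and 3, of which Chil3 made up 338, 327 and 461 TPM. Replicate 3 was also the library in which the fewest of the 78 genes had their highest value. A link between them cannot be told apart from other differences between the libraries and was not tested.

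The genes lie on 17 chromosomes. RefSeq promoter windows of GRCm38.p6, from 250 bases before to 50 bases after the start, matched 69 of the 78 genes. The 9 without a window were Mrpl13, Mrpl15, Mrpl19, Mrpl38, Mrpl4, Mrpl54, Mrps28, Mrps34 and Mrps35.

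Head-to-head neighbours were common. Of the 69 genes, 24 (34.8%) had a listed gene starting on the opposite strand within 1000 bases upstream, against 11% of the 12762 listed genes with a window. The share was 23.9% for oxidative phosphorylation subunits and 15.2% for cytosolic ribosomal proteins. Within 300 bases it was 27.5% (19 of 69), against 8.56%. The 24 genes had a median of 40.2 TPM, and the 45 without such a neighbour had 43.2 TPM.

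A single pair joined both subunits. Mrps11, of the small subunit, and Mrpl46, of the large subunit, start 42 bases apart on chromosome 7 and point away from each other. Mrps11 had 28.8, 29.1 and 30.3 TPM and Mrpl46 had 31.4, 30.2 and 28.8 TPM, so their libraries overlapped. Some other neighbours also act in mitochondria. The share of such genes was counted neither among all neighbours nor among listed genes. Mrpl43 (66.6 ± 1.51 TPM) starts 116 bases from Twnk, the mitochondrial DNA helicase gene (11.5 ± 0.957), Mrps12 (48.0 ± 1.95) starts 147 bases from the mitochondrial seryl-tRNA synthetase gene Sars2 (21.5 ± 2.67), and Mrpl47 (16.9 ± 1.87) starts 308 bases from the complex I gene Ndufb5 (157 ± 3.55). Mrps27 (16.3 ± 0.504) starts 108 bases from Ptcd2 (33.3 ± 2.05). These pairs were named after their values were seen. Of the sequence words of Mrpl43, Mrpl47 and Mrpl46, 31.0%, 22.2% and 9.22% occur on the opposite strand of other genes. The largest partners were Twnk, Ndufb5 and Mrps11, the neighbours named here, whereas Mrps12 shared no words. Whether the libraries kept the strand is not known, so the levels within such overlapping pairs are not certain to be separate.

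Levels within such pairs varied widely. Across the 22 pairs with a partner outside the set, the Spearman coefficient between the levels of the 2 genes, measured in the same libraries, was -0.23, and the gene of the mitochondrial ribosome was the higher in 14. Mrpl49 (43.1, 40.2 and 35.2 TPM) starts 192 bases from Fau (2856 ± 160.4), whereas Mrps5 (66.9 ± 2.80) starts 332 bases from Zfp661 (1.64 ± 0.461). Mrpl40 and Hira, 113 bases apart, were both at 42.3 TPM.

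**Figure D5:**
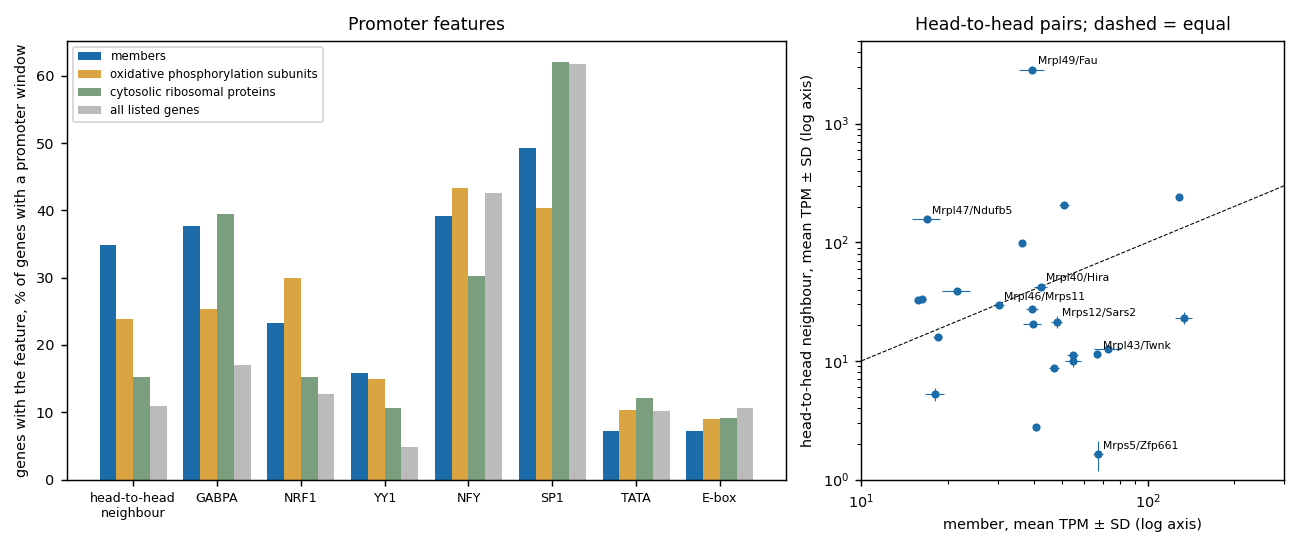
Left, share of genes with a promoter feature in percent, for the mitochondrial ribosome (members), oxidative phosphorylation subunits, cytosolic ribosomal proteins and all listed genes; right, mean TPM ± SD of each head-to-head neighbour against that of its gene of the mitochondrial ribosome, on log axes, with a dashed line of equal levels. The blue bar for head-to-head neighbours stands at 34.8%, against 11% for all listed genes, and the pairs scatter widely about the line, with Mrpl46 and Mrps11 close to it.

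The promoter windows were searched on both strands for the letters of 7 motifs. The letters CCGGAAG, known to be bound by the ETS factor GABPA, occurred in 26 of 69 genes (37.7%), against 17% of listed genes. GCGCANGCG, bound by NRF1, an activator of nuclear genes for mitochondria, occurred in 16 (23.2%), against 12.7%. AANATGGCG, bound by YY1, occurred in 11 (15.9%), against 4.86%. At least 1 of these 3 motifs occurred in 43 of 69 genes (62.3%), against 29.8%, and at least 2 of them in 10 genes, against 4.61%. The NRF1 and YY1 letters are shortened forms, chosen after longer ones of 10 and 11 letters had been counted in 13 genes (18.8%, against 9.5%) and 7 genes (10.1%, against 2.2%).

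Both other sets held these letters too. The GABPA letters were found in 25.4% of oxidative phosphorylation subunits and 39.4% of cytosolic ribosomal proteins with a window, the NRF1 letters in 29.9% and 15.2%, and the YY1 letters in 14.9% and 10.6%. The letters CCAAT (39.1%, against 42.6% of listed genes), TATAAA (7.25%, against 10.2%), CACGTG (7.25%, against 10.6%) and GGGCGG (49.3%, against 61.7%) had lower shares than listed genes. GABPA letters overlapped GGGCGG letters in 2 genes, and no other motifs overlapped each other. For a gene with several windows, a match in any of them was counted.

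Levels are given by motif as a description. The 26 genes with the GABPA letters had a median of 53.9 TPM, against 39.7 TPM for the 43 without. The 16 genes with the NRF1 letters had 51.1 TPM, against 41.4 TPM for the 53 without, and the 11 with the YY1 letters had 41.4 TPM, against 42.2 TPM for the 58 without. A match describes the sequence and is not evidence of binding in these cells.

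The 11 YY1 matches are shown because 9 of them take a similar place. These 9 lie after the transcription start in the direction of the gene, beginning between 8 bases (Mrpl27) and 36 bases (Mrps24) after it. Their letters include an ATG because the motif searched for does. The matches of Mrps11 and Mrpl36 lie before the start, on the opposite strand. That of Mrps11, from -108 to -100, is past the start of Mrpl46 and in its direction. Each stretch of 30 bases is given 5′ to 3′ on the strand of the gene, with the motif in capitals, from RefSeq on GRCm38.p6.
Mrpl27 (chr11:94653789-94653818, plus strand): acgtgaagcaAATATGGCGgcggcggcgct
Mrpl35 (chr6:71823742-71823771, minus strand): ggcaggctgcAAGATGGCGgcttccatctt
Mrpl36 (chr13:73330968-73330997, plus strand): cgtgaccttaCGCCATCTTtcttcctggcg
Mrpl37 (chr4:107066821-107066850, minus strand): tgcacgggcaAAGATGGCGgcgtccaggta
Mrpl42 (chr10:95501903-95501932, minus strand): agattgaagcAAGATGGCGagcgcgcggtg
Mrpl58 (chr11:115403762-115403791, plus strand): ctgggaggtgAACATGGCGaccgcctgggg
Mrps11 (chr7:78783013-78783042, plus strand): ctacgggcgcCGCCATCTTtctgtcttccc
Mrps18a (chr17:46111005-46111034, plus strand): ggtgcgttccAAGATGGCGgccctcagggc
Mrps24 (chr11:5707652-5707681, minus strand): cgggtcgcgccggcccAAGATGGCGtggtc
Mrps27 (chr13:99344790-99344819, plus strand): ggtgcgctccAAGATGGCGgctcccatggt
Mrps30 (chr13:118387218-118387247, minus strand): gcggcgggcgAAAATGGCGgcggccaggta

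The promoters of the highest and the lowest gene are shown next, from 250 bases before the start to 29 after it, with the letters of GABPA and NRF1 in capitals. Mrpl33 (219 ± 5.60 TPM) has a GABPA match across its start, from -3 to 3. Mrpl17 (6.19 ± 0.490 TPM) has a GABPA match from -237 to -231 and NRF1 matches from -49 to -41 and from -11 to -3. Mrpl17 holds more of these letters than Mrpl33, although it was lowest only in TPM and 45th in CPM. Over the set, genes with the GABPA or NRF1 letters had the higher medians, as given above. A bearing of the letters on level was not tested.
Mrpl33 (chr5:31613701-31613980, plus strand): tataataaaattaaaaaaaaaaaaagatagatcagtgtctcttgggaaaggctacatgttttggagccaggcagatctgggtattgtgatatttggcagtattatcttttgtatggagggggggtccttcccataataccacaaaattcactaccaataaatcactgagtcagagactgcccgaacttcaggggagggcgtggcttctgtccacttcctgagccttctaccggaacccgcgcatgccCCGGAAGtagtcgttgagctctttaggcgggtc
Mrpl17 (chr7:105811058-105811337, minus strand): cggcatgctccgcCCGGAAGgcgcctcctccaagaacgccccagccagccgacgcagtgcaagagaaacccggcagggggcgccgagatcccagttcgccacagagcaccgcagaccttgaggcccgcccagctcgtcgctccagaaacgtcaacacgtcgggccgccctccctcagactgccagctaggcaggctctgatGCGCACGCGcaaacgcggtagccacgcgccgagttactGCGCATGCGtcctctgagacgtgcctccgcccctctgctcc

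The region between Mrps11 and Mrpl46 is shown for its 2 close starts. It runs from 72 bases before to 29 bases after the start of Mrps11, on the strand of that gene, and holds no letters of the 3 motifs.
Mrps11 (chr7:78783059-78783160, plus strand): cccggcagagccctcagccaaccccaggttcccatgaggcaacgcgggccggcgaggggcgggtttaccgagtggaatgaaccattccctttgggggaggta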

How the data were processed

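RNA of sorted mouse lung ILC2s was sequenced in 3 libraries, grouped by their titles into 1 group. Bowtie2, RSEM 1.3.1 and the build GRCm38.p6 are listed, per the submitters' processing notes, with no role or order. Per the file headers, the deposited table gives TPM, FPKM, estimated counts and normalised read counts (a scaled signal) for each library. The normalised counts equalled the estimated counts rounded up and scaled by 1.00144, 1 and 0.997 in replicates 1, 2 and 3 in 100% of values, and were not used further. The sources used here name neither the annotation nor any filter.

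From these values, levels were summarised as mean and SD of TPM, and lists were compared within each library on log2(TPM + 1). A gene counted as present at 1 TPM or more in each library. Effective length was calculated from count and FPKM. Shared 50-base words came from GENCODE M21 transcripts, and promoters and gene positions from RefSeq (GRCm38.p6), where all 78 symbols matched. Estimated counts were rounded for chi-square comparisons, and TMM factors came from edgeR 4.0.16 in R 4.3.3. Other steps used Python 3.11.15, pandas 2.3.3, numpy 2.4.6 and scipy 1.17.1. Of these steps, only the difference between lists and the ratio of variances were tested on simulated counts. The counting error of a gene was given as a coefficient of variation, which covers counting error only.

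The 78 genes and all lists were chosen with earlier results of these data known, so no p-value is given. All genes of the set could be named. Values in full were given for the 8 highest and 8 lowest, the genes of the role lists, the 5 with the largest range between libraries, and the 3 highest and the lowest of each pathway list. Other pseudocounts, units, summaries and thresholds, and leaving out each library, were tried as alternatives.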

Additional observations from a re-analysis of the deposited data

How the results depend on the processing

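For single levels, leaving out a library or applying TMM factors was tried; neither can move a mean of 3 libraries much, so they say little of stability, and other units change the order as the CPM ranks show. Of 63 alternatives for list results and counts, 17 moved and 0 changed direction, though counts and SDs are never negative and could not change it. A move meant over 1 SD between libraries, except that counts were judged by a fold limit. The SD between libraries was judged by the SD of its own values with each library left out. The other genes of mitochondrial translation present fell to 61 of 65 at 5 TPM, and all 78 genes stayed present. In CPM, which is not divided by length, large minus small subunit genes was 0.24 (0.18 in TPM), conserved minus mitochondria-specific genes 0.069 (0.24), the distance from cytosolic ribosomal proteins -5.06 (-5.89), that from oxidative phosphorylation -1.35 (-1.76) and the SD over the 78 genes 0.75 (0.95). That SD was 0.92 in FPKM and 0.98 with a pseudocount of 0.1. With medians, large minus small was 0.072, and with means the distances were -5.09 and -1.54. Alternatives chosen after seeing the data were the genes with few shared words, giving 0.061 for large minus small and 0.081 for conserved minus specific, and cytosolic genes without relatives ending in l, giving -5.97. The median SD between libraries was 0.070 in CPM with TMM factors (0.065 in TPM). Leaving out each library in turn gave 0.16 to 0.19 for large minus small, 0.24 to 0.25 for conserved minus specific, -5.90 to -5.86 and -1.78 to -1.74 for the distances, 0.95 to 0.96 for the SD over genes and 0.047 to 0.058 for the SD between libraries. The values of the SD between libraries with a library left out rest on fewer libraries and are not directly comparable with 0.065. The cause of the moves was not tested. No paired analysis was possible because the design holds 1 group. With 3 libraries of 1 condition, no effect of treatment can be measured. Estimated counts of 108 to 1757 a gene limit single levels to a counting error of 2.39% to 9.64%.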
